A study of Homo sapiens with 20 samples.

Results

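The NADPH oxidases are enzymes that produce superoxide or hydrogen peroxide on purpose, and 10 genes of this family and of its partner proteins were followed in gastric cancer cell lines treated with decitabine. The genes were chosen by name: the oxidases DUOX1, DUOX2, NOX1, NOX4 and NOX5, the maturation factors DUOXA1 and DUOXA2, the NOX1 organizer NOXO1 and activator NOXA1, and CYBA, which encodes the membrane subunit p22phox. All 10 were among the 60232 genes of the expression table, and all 10 were among the 27350 genes that passed the filter on low values and were tested. DUOXA2 passed that filter only through the decitabine libraries of the line AGS. The question put to them was whether the oxidases and their maturation factors rose together.

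RNA sequencing was performed on 5 gastric cancer cell lines, each treated for 72 h with 7.5 µM decitabine (DCB), an inhibitor of DNA methyltransferases, or with its solvent DMSO as control, with 2 libraries per line and treatment (20 libraries). YCCEL1 and SNU719 carry Epstein-Barr virus (EBV+) and AGS, SNU16 and HGC27 do not (EBV−). YCCEL1, SNU719 and AGS have the CpG island methylator phenotype (CIMP+), whereas SNU16 and HGC27 do not (CIMP−). All lines are listed as wild type, and each is 1 line grown in culture, so that differences between EBV+ and EBV− or CIMP+ and CIMP− cells rest on 2 or 3 lines a side. Values are normalized counts, whose sums ran from 7764408 to 9321014 per library. Whether both libraries of a group were grown as separate cultures is given nowhere, so the p-values measure the spread between libraries alone, which may be technical. The correlation between the 2 libraries of a group was 0.969 to 0.98. The sum of 5 epithelial markers (EPCAM, CDH1, KRT8, KRT18 and KRT19) was 31499 to 101130 in the libraries of YCCEL1, SNU719, AGS and SNU16 but 115 to 609 in those of HGC27, which instead had 8565 normalized counts of the collagen gene COL1A1 in DMSO. HGC27 is therefore called by its label alone and not as an epithelial line, and parts of the published text name MKN74 in its place, so that the identity of these 4 libraries rests on the labels. Of 6 leukocyte markers, PTPRC, CD14, SPI1, FCER1G and CSF1R lay at or below 8.77, 5.89, 3.06, 7.67 and 19.8 normalized counts in every library. The sixth, the lysozyme gene LYZ, was high in YCCEL1 (mean 43520 in DMSO and 70283 in DCB), SNU719 (31628 and 16020.1) and AGS (34419 and 16506) and at 144 or below on average in SNU16 and HGC27.

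An NADPH oxidase passes electrons from NADPH across a membrane to oxygen. The dual oxidases DUOX1 and DUOX2 release hydrogen peroxide at the surface of epithelia, where peroxidases use it in host defence. Each needs a partner, DUOXA1 or DUOXA2, to leave the endoplasmic reticulum and reach the cell surface, and the genes of oxidase and partner lie head to head on chromosome 15. NOX1, best known from the colon, needs p22phox, NOXO1 and NOXA1, whereas NOX4 needs p22phox alone and NOX5 is switched on by calcium.

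The 4 DUOX genes filled 1 stretch of chromosome 15 (GRCh38), in the order DUOX2 (45092650 to 45114172, minus strand), DUOXA2 (45114326 to 45118421, plus), DUOXA1 (45117367 to 45129938, minus) and DUOX1 (45129933 to 45165576, plus). The start sites of DUOX2 and DUOXA2 point away from each other, and the 153 bases between them (chr15:45114173-45114325, plus strand, GRCh38.p14) lie just upstream of both genes. They are shown beside the upstream sequence of CYBA (chr16:88651084-88651303, minus strand), the gene at 0 in one of the lines, and that of NOX1 (chrX:100874360-100874609, minus strand). The CYBA stretch leaves out the bases nearest the CYBA start (88651053), whereas the NOX1 stretch runs up to the NOX1 start (100874359). NOX1 fell with DCB in AGS and SNU719 but rose in YCCEL1. All are from RefSeq, 5′ to 3′, with each CG, the dinucleotide at which DCB acts on methylation, in capitals.
DUOX2 to DUOXA2: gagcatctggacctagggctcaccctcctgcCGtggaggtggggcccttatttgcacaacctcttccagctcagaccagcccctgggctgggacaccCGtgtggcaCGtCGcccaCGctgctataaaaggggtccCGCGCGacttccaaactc
CYBA upstream: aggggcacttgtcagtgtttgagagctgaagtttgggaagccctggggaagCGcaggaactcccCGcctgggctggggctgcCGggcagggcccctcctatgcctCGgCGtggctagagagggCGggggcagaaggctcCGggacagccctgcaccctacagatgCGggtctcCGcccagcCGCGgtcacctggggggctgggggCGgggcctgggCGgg
NOX1 upstream: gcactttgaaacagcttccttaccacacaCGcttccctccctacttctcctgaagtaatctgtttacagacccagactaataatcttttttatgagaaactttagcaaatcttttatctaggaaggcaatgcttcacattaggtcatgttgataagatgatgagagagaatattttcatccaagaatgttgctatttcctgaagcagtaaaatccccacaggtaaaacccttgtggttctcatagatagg
The DUOX2 to DUOXA2 stretch held 8 CG and was 63.4% G or C, the CYBA stretch of 220 bases held 13 CG, and the NOX1 stretch of 250 bases held 1. The letters TATAAA, the core of a TATA box, begin 32 bases before the DUOXA2 start in the first of them, and lie on either strand in 11.5% of all RefSeq promoters. That motif was looked for after the sequence had been seen.

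The DUOX system rose in AGS cells. DUOX2 was at 11.7 and 8.34 normalized counts in the DMSO libraries of AGS and at 395 and 341 in the DCB libraries, a log2 fold change of 5.08 (SE 0.65, adjusted p = 5.0e-05, limma with Benjamini-Hochberg adjustment over all tested genes, as for every adjusted p given here unless stated). Its maturation factor DUOXA2 had 0 in the 2 DMSO libraries of AGS and 27.8 and 31.1 in the DCB libraries (adjusted p = 3.46e-08), with no fold given against 0. DUOXA2 passed the filter on low values only through these DCB libraries. Its calls here and below are therefore no independent evidence of a rise in AGS. DUOX1 went from 4.0 and 8.23 to 78.5 and 95.3 (log2 fold change 3.69, SE 0.77, adjusted p = 0.0024). In all 3 genes both DCB libraries lay far above both DMSO libraries. DUOXA1, the maturation factor of DUOX1, was at 2.58 and 2.41 in DMSO and at 42.7 and 23.0 in DCB (log2 fold change 3.21, SE 0.72, adjusted p = 0.0039). Thus both oxidases and both maturation factors rose in this line, and all 4 calls held when each AGS library was left out in turn. Since 1055 bases of DUOXA1 and DUOXA2 and 6 of DUOX1 and DUOXA1 overlap on opposite strands, and the sources disagree on whether the libraries keep the strand, part of the reads of 1 gene could be counted for its neighbour.

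**Figure D1:**
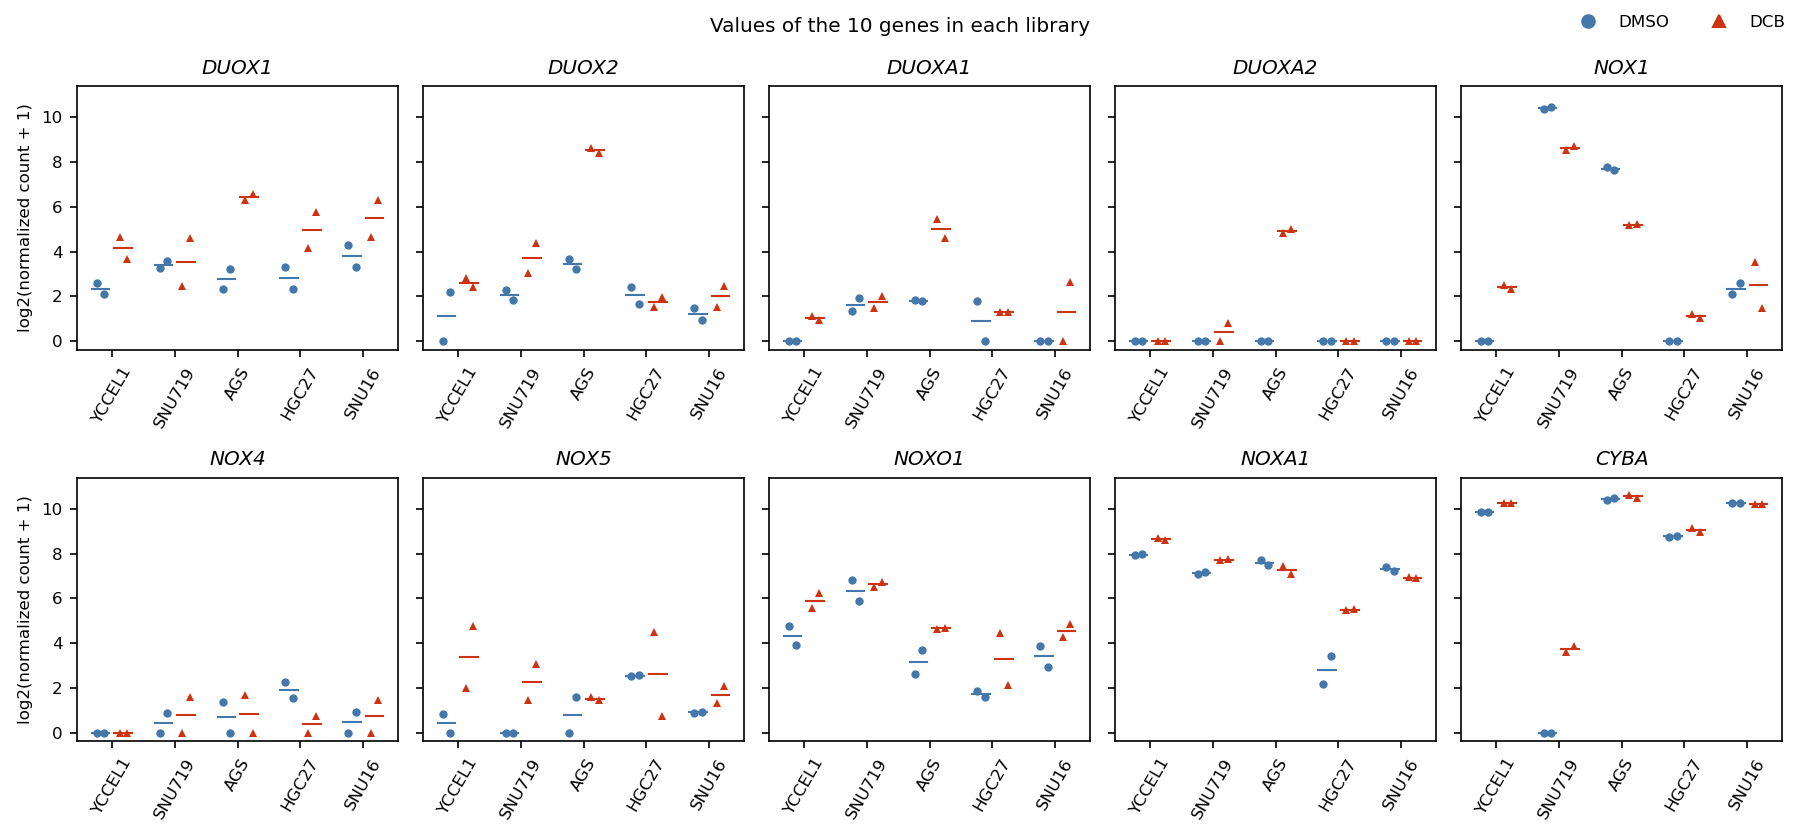
Values of the 10 genes in each library, as log2(normalized count + 1) on the vertical axis, by cell line; circles are DMSO and triangles DCB libraries, and each bar is the mean of 2 libraries. DUOX2 stands at 341 to 395 normalized counts in the AGS DCB libraries, NOX1 is highest in SNU719 and CYBA is near or at 0 in SNU719 alone.

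In the other lines none of the 4 DUOX genes passed the test, although 1 DCB library of SNU16 had as much DUOX1 (78.9) as 1 of AGS (78.5). DUOX2 was at 3.84 and 2.61 in the DMSO libraries of SNU719 and at 7.19 and 20.01 in its DCB libraries (log2 fold change 1.65, SE 0.65, adjusted p = 0.095). In YCCEL1 it was at 0 and 3.59 in DMSO and at 5.99 and 4.31 in DCB (1.51, SE 0.65, adjusted p = 0.13). In both of these EBV+ lines the DCB libraries lay above the DMSO libraries, but by an amount that did not pass. DUOX2 was at 1.80 and 0.94 in DMSO and 1.87 and 4.50 in DCB in SNU16 (adjusted p = 0.63). The values in HGC27, 4.37 and 2.19 in DMSO and 1.87 and 2.95 in DCB, overlapped (adjusted p = 0.84). DUOXA2 was at 0 in every DMSO library of the series, and outside AGS a single DCB library, 1 of SNU719 with 0.75, had any value for it.

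DUOX1 was higher in the DCB than in the DMSO libraries of 4 of the 5 lines, AGS included. It was at 4.95 and 3.34 in DMSO and 24.2 and 11.7 in DCB in YCCEL1 (log2 fold change 1.82, SE 0.77, adjusted p = 0.12). In HGC27 it was at 9.04 and 4.06 in DMSO and 16.8 and 52.7 in DCB (2.12, SE 0.77, adjusted p = 0.062). In SNU16 the values were 18.5 and 9.06 in DMSO and 24.0 and 78.9 in DCB (1.67, SE 0.77, adjusted p = 0.26). The groups did not overlap in any of these 3 lines, although the 2 DCB libraries of each line were themselves well apart. Those of SNU719 did overlap (8.69 and 10.8 in DMSO, 4.53 and 23.7 in DCB, adjusted p = 0.97). DUOXA1 stayed at 5.16 or below in every library outside AGS: it was at 1.54 and 2.79 in DMSO and 1.82 and 3.05 in DCB in SNU719, and at 0 in both DMSO libraries of YCCEL1 and of SNU16.

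Ordered by mean level over the 10 groups of line and treatment, DUOX1 ran from AGS with DCB (86.9) through SNU16 with DCB (51.4) and HGC27 with DCB (34.7) down to YCCEL1 with DMSO (4.14), and every group overlapped with the next in that order. DUOX2 was highest in AGS with DCB (368), apart from SNU719 with DCB (13.6), which overlapped with AGS in DMSO (10.00), and all further groups lay at a mean of 5.15 or below. DUOXA1 and DUOXA2 were likewise highest in AGS with DCB (32.8 and 29.4), where neither overlapped with the next group. Over the 10 group means on the log2 scale, Pearson's r was 0.96 between DUOX2 and DUOXA1, 0.94 between DUOX2 and DUOXA2 and 0.90 between DUOXA1 and DUOXA2. DUOX1 went less closely with the others, at 0.59 with DUOX2, 0.67 with DUOXA1 and 0.66 with DUOXA2. These values describe 10 groups of which 1, AGS with DCB, is far from the others, and are given with no test.

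Across the 5 lines, with a term for the line, 5 of the 10 genes rose and 0 fell (limma; at an unadjusted p below 0.05 likewise 0 fell), where 17.9% of all tested genes rose and 6.94% fell. The 5 were DUOX1, DUOX2, DUOXA1, NOXO1 and NOX5. The median log2 change of the 10 genes was 1.138, beside 0.15 over all tested genes. DUOX1 rose by 1.88 (SE 0.41, adjusted p = 0.0026), and still did with AGS left out (1.43, adjusted p = 0.032). DUOX2 rose by 1.74 (SE 0.51, adjusted p = 0.017), but its change without AGS was 0.91 (adjusted p = 0.12) and without SNU719 its adjusted p was 0.059. With quantile normalization DUOX2 (1.16, adjusted p = 0.11), DUOXA1 (adjusted p = 0.27) and NOX5 (adjusted p = 0.28) no longer passed. DUOXA1 passed with an adjusted p of 0.029, which became 0.19 without AGS, 0.079 without YCCEL1 and 0.051 without SNU16. It passed in 14 of the 20 fits that each left out 1 library, and the largest adjusted p, 0.060, came without the first DMSO library of AGS. DUOXA2 did not pass over the 5 lines (adjusted p = 0.11), having values above 1 in AGS alone.

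**Figure D2:**
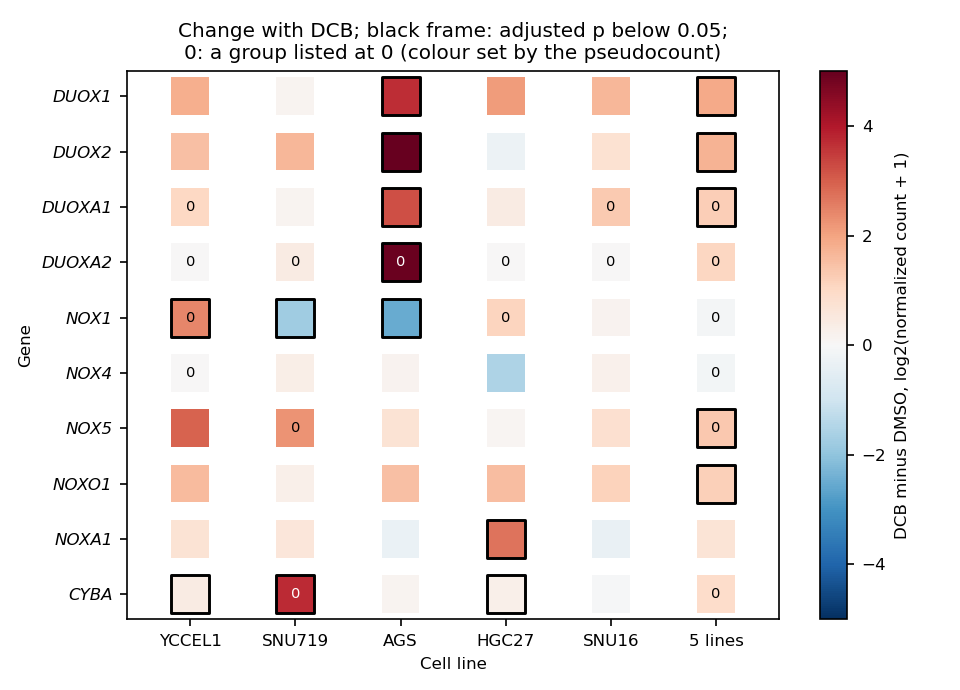
Change of each gene with DCB (DCB minus DMSO on the log2(normalized count + 1) scale, colour) in each cell line and over the 5 lines; black frames mark an adjusted p below 0.05, and a 0 marks a group listed at 0, for which the colour depends on the pseudocount and is no fold. The 4 DUOX rows are framed together in AGS and in no other single line, and NOX1 is blue in AGS and SNU719.

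Whether an oxidase and its maturation factor differed in the size of their change was tested for the 2 pairs with an exact permutation test over libraries within lines (two-sided, 7776 arrangements, smallest possible p 0.000257). The change of DUOXA1 minus that of DUOX1, averaged over the lines, was −0.67 on the log2(normalized count + 1) scale (exact permutation p = 0.053, 0.053 adjusted over the 2 pairs). Outside AGS, DUOXA1 stood at 5.16 normalized counts or below in every library, and at 0 in both DMSO libraries of YCCEL1 and SNU16. This scale understates changes of low genes, so a negative difference can arise from the lower level of DUOXA1 alone. The test therefore cannot decide whether DUOX1 and DUOXA1 changed unequally. The change of DUOXA2 minus that of DUOX2 was −0.68 (exact permutation p = 0.028, adjusted 0.053), but outside AGS DUOXA2 had a value in 1 library alone, so that in the other 4 lines this difference is little more than the change of DUOX2 and no test of the pair. By line, DUOX1 and DUOXA1 changed by 3.69 and 3.21 in AGS, by 2.12 and 0.39 in HGC27, by 1.82 and 1.03 in YCCEL1, by 1.67 and 1.31 in SNU16 and by 0.13 and 0.12 in SNU719. DUOX2 and DUOXA2 changed by 5.08 and 4.93 in AGS and by 1.65 and 0.40 in SNU719, whereas in HGC27 DUOX2 changed by −0.30 with DUOXA2 at 0. In AGS the maturation factor had the smaller value of each pair. The values of DUOXA2, at 0 in DMSO, depend on the pseudocount, as do those of DUOXA1 in YCCEL1 and SNU16. With a pseudocount of 5 both differences passed (−0.88 and −0.73, adjusted p = 0.0054 each), so the call depends on the pseudocount.

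The DCB effect of AGS was compared with the mean effect of the other 4 lines, a contrast added after the values of AGS had been seen, so that its p-values are no independent evidence. The effect of AGS on DUOX2 was higher by 4.17 (SE 0.73, adjusted p = 0.0014), and that on DUOXA2 was higher with an adjusted p of 4.55e-07. For DUOXA1 the adjusted p was 0.04999, and it passed in 3 of the 20 fits with 1 library left out, reaching 0.21 without the first DCB library of AGS. For DUOX1 the difference was 2.25 (SE 0.86) and did not pass (adjusted p = 0.096). In all, 3 of the 10 genes had a higher and 3 a lower effect in AGS, against 9.41% and 6.31% of all tested genes.

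Within 150 kb of the 4 DUOX genes, 7 other genes were tested. In AGS 1 of the 7 rose, where 18.5% of all tested genes did, so that this count is near that of all genes. It was the sorbitol dehydrogenase gene SORD, which rose from a mean of 779 to 1045 normalized counts (log2 fold change 0.42, SE 0.11, adjusted p = 0.013). AC051619.5, a transcript antisense to DUOX1 that shares 12913 bases with it, was at 7.26 in DMSO and 11.6 in DCB in AGS (adjusted p = 0.64). SHF, an adaptor protein gene just beyond DUOX1, was at 3.21 and 9.29 (adjusted p = 0.12), and TERB2 at the other end at 4.25 and 0.84 (adjusted p = 0.19). In SNU719 2 of the 7 fell, where 7.64% of all genes did: SORD fell from 686 to 367 (−0.90, SE 0.11, adjusted p = 6.47e-05) and SHF from 11.6 to 2.01 (−1.85, SE 0.55, adjusted p = 0.028). AC051619.3, AC051619.4 and SLC28A2, the solute carrier at the far side, passed in no line.

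**Figure D3:**
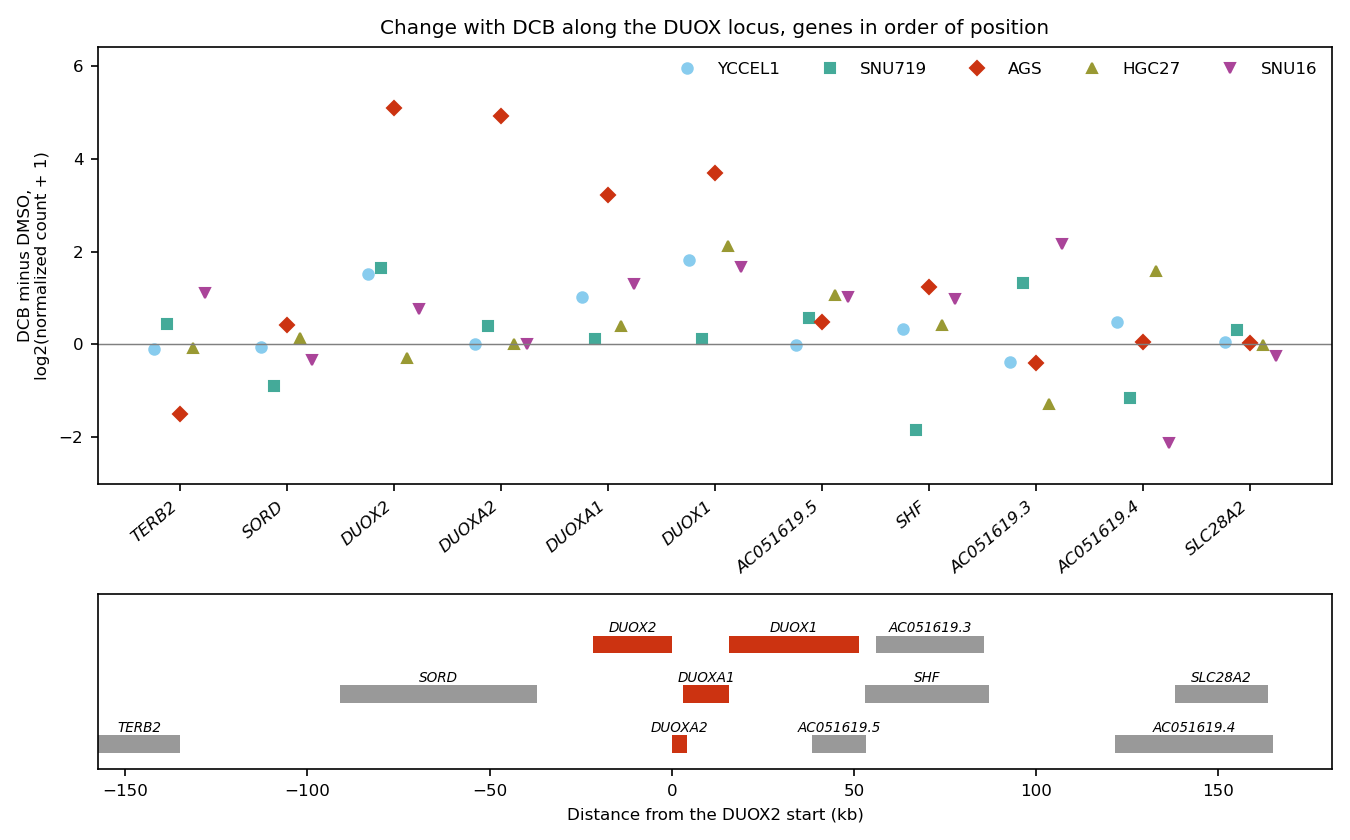
Change with DCB (DCB minus DMSO, log2(normalized count + 1)) of the 11 tested genes of the DUOX locus in order of position, by cell line, above a map of the genes in kb from the DUOX2 start (red, DUOX genes; grey, others). In AGS (diamonds) the 4 DUOX genes lie between 3.21 and 5.08, and the 7 neighbours lie at or below 1.23.

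NOX1 fell in the 2 lines in which it was highest. In AGS it was at 216 and 199 in DMSO and at 34.9 and 36.5 in DCB (log2 fold change −2.51, SE 0.49, adjusted p = 0.0015), with no overlap, and the call held with each library left out. In SNU719 it was at 1307 and 1416 in DMSO and at 369.6 and 426 in DCB (−1.77, SE 0.49, adjusted p = 0.018). The DMSO libraries of SNU719 were well apart from its DCB libraries, yet the call did not hold with any 1 of the 4 left out (log2 fold change −1.877 to −1.671). In YCCEL1 the gene was instead listed at 0 in both DMSO libraries and at 4.73 and 4.08 in DCB, and rose (adjusted p = 0.0024). In SNU16 the groups overlapped (3.25 and 5.09 in DMSO, 10.7 and 1.79 in DCB, adjusted p = 0.97), and in HGC27 the values were 0 and 0 in DMSO and 1.30 and 1.03 in DCB (adjusted p = 0.12). Over the 5 lines the adjusted p was 0.89. In order of mean level, SNU719 with DMSO (1361), SNU719 with DCB (398), AGS with DMSO (207) and AGS with DCB (35.7) stood apart from each other and from the remaining groups, of which the highest, SNU16 with DCB, had 6.26. The fall of NOX1 in AGS thus went with the rise of the dual oxidases there, while in SNU719 NOX1 fell with no passing change of a DUOX gene. The DCB effect on NOX1 was lower in AGS than in the other 4 lines (adjusted p = 0.0019).

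Neither cytosolic partner of NOX1 passed the test in AGS or SNU719, where NOX1 fell. NOXO1, which assembles the NOX1 complex at the membrane, was at 111 and 58.0 in DMSO and 91.0 and 107 in DCB in SNU719, with overlap. In AGS it was at 5.11 and 12 in DMSO and at 24.0 and 24.3 in DCB (log2 fold change 1.496, SE 0.66, adjusted p = 0.11). In YCCEL1 the values were 26.0 and 13.9 in DMSO and 45.9 and 73.9 in DCB (1.57, SE 0.66, adjusted p = 0.11). DCB libraries lay above the DMSO libraries in 4 of the 5 lines, SNU719 being the exception, and no single line passed. Over the 5 lines NOXO1 rose by 1.21 (SE 0.29, adjusted p = 0.0055), and did so with each library left out, although with quantile normalization the adjusted p was 0.070. The gene shares 4013 bases with TBL3 on the other strand.

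NOXA1, which activates NOX1, rose in HGC27, from 3.43 and 9.59 in DMSO to 42.9 and 45.5 in DCB (log2 fold change 2.72, SE 0.28, adjusted p = 8.05e-06). With HGC27 fitted alone its adjusted p was 0.099. HGC27 was the line with the lowest NOXA1, and its DCB level remained below that of every group of the other lines. In the same line 4 of 5 epithelial markers rose, where 14.7% of all tested genes did. The sum of these 5 markers went from 115 to 173 in DMSO to 485 to 609 in DCB, and their part in the result was not tested. In bulk RNA, a change in the number of cells of a type and in the RNA per cell cannot be told apart. In YCCEL1 NOXA1 was at 242 and 251 in DMSO and 418 and 392 in DCB (0.71, SE 0.28, adjusted p = 0.097), and in SNU719 at 136 and 142 and at 207 and 214 (0.60, SE 0.28, adjusted p = 0.17). It was at 208 and 178 in DMSO and 172 and 136 in DCB in AGS, and at 165 and 146 and at 124 and 117 in SNU16, in both cases with the DCB libraries lower and an adjusted p of 0.46 and 0.59. The lines thus split in direction, and over the 5 of them the adjusted p was 0.10.

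CYBA, the p22phox subunit that NOX1 and NOX4 need, was at 0 in SNU719. Both DMSO libraries of this line were listed at 0, and DCB brought 11.0 and 13.7 normalized counts (adjusted p = 4.36e-11, held with each library left out). Every other group lay far above: AGS at 1325 and 1409 in DMSO and 1566 and 1448 in DCB (adjusted p = 0.38), and SNU16 at 1230 and 1235 in DMSO and 1170 and 1178 in DCB (adjusted p = 0.83). SNU719, the line with the highest NOX1, was therefore the line with the lowest CYBA, before and after treatment. In YCCEL1, the other EBV+ line, CYBA went from 913 and 926 to 1223 and 1224 (log2 fold change 0.41, SE 0.10, adjusted p = 0.011), a call lost with any 1 of its 4 libraries left out, the adjusted p reaching 0.064 without the first DMSO library. In HGC27 it went from 433 and 434 to 572 and 502 (0.31, SE 0.10, adjusted p = 0.048), a call that also failed in 3 of 4 such fits, reaching 0.28 without the first DCB library. Over the 5 lines the adjusted p was 0.057. No neighbours in the order of the 10 group means overlapped for this gene.

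NOX4 was close to 0, and NOX5 was low but for single libraries. NOX4, an oxidase that is active without further subunits than p22phox, lay between 0 and 3.71 in all 20 libraries and was at 0 in all 4 of YCCEL1. Its highest values, 3.71 and 1.95, were those of HGC27 in DMSO, with 0 and 0.68 in DCB (adjusted p = 0.15). NOX5 was at 0.78 and 0 in DMSO and 2.95 and 26.2 in DCB in YCCEL1 (log2 fold change 2.96, SE 1.07, adjusted p = 0.066). In HGC27 it was at 4.74 and 4.88 in DMSO and 21.8 and 0.69 in DCB, so that the DCB libraries lay on both sides of the DMSO libraries. SNU719 had 0 and 0 in DMSO and 1.71 and 7.31 in DCB (adjusted p = 0.17). SNU16 had 0.84 and 0.88 in DMSO and 1.49 and 3.24 in DCB (adjusted p = 0.80). In both of these lines, as in YCCEL1, the DCB libraries lay above the DMSO libraries. Those of AGS overlapped (0 and 1.99 in DMSO, 1.96 and 1.71 in DCB). NOX5 passed in no line and passed over the 5 lines with an adjusted p of 0.0496, which held in 5 of the 20 fits with 1 library left out and was 0.097 without the second DMSO library of YCCEL1. Its span of chromosome 15 (68930525 to 69062762) also holds SPESP1, and reads may be shared.

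By line, 4 of the 10 genes rose and 1 fell in AGS, against 18.5% and 9.13% of all tested genes. Of these 4, DUOXA2 was tested only through its values in AGS with DCB. In YCCEL1 2 rose (NOX1 and CYBA), where 14.6% of all genes rose and 6.93% fell, and in HGC27 2 rose (NOXA1 and CYBA), where 14.7% rose and 9.03% fell. In SNU719 1 rose (CYBA) and 1 fell (NOX1), against 13.5% and 7.64%. In SNU16 0 of the 10 passed in limma, where 4.50% of all genes rose and 2.34% fell, and 1, DUOX1, had an unadjusted p below the threshold of 0.05. The median log2 change of the 10 genes was 1.10 in AGS, 1.27 in YCCEL1, 0.37 in SNU719, 0.52 in SNU16 and 0.35 in HGC27, beside 0.12, 0.09, 0.11, 0.01 and 0.04 over all tested genes. With 10 genes, the shares that passed are close to those of all genes in each line but AGS. At an unadjusted p below 0.05 in limma, 7 of the 10 were higher in YCCEL1, 5 each in AGS and HGC27 and 2 in SNU719. At that level 1 was lower in AGS and 1 in SNU719. The share of all genes at that level is not given here, and the median change was largest in YCCEL1.

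The DCB effect was set against EBV and CIMP status, with p-values that use the spread between libraries and not that between lines. The effect differed between CIMP+ and CIMP− lines for 4 of the 10 genes, higher for DUOX2, DUOXA2 and CYBA and lower for NOXA1, where 12.8% and 8.94% of all genes were higher and lower. For DUOX2 the difference was 2.51 (SE 0.60, adjusted p = 0.0078), with changes of 5.08, 1.65 and 1.51 in AGS, SNU719 and YCCEL1 and of 0.77 and −0.30 in SNU16 and HGC27. For NOXA1 it was −0.85 (SE 0.26, adjusted p = 0.030), with changes of 0.71, 0.60 and −0.33 in YCCEL1, SNU719 and AGS and of 2.72 and −0.36 in HGC27 and SNU16. HGC27 alone thus lay above the CIMP+ lines, while SNU16, the other CIMP− line, was level with AGS. The difference passed in 9 of the 20 fits with 1 library left out, its adjusted p reaching 0.070 without the second DMSO library of SNU16. DUOX1 differed by −0.02 (95% interval −1.52 to 1.49, adjusted p = 0.99), an interval that leaves room for a sizeable difference either way. Between EBV+ and EBV− lines 1 gene was higher, CYBA, and 1 lower, DUOXA2, against 10.5% and 9.17% of all genes. In DMSO, CYBA was at 0 in SNU719 alone, and with DCB DUOXA2 was above 1 in AGS alone, so that no size is given for these differences. For DUOX2 the EBV difference was −0.27 (95% interval −1.56 to 1.01, adjusted p = 0.81). For DUOX1 it was −1.519 (95% interval −3.023 to −0.014, adjusted p = 0.16), and for NOX5 2.064 (−0.034 to 4.162, adjusted p = 0.17). Neither of these passed.

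Other genes of the pathway were taken from lists of known function. Of 13 oxidase partners 12 were tested, and over the 5 lines 3 rose and 0 fell (6 and 0 at an unadjusted p below 0.05), where 17.9% and 6.94% of all genes did, with a median change of 0.33. Among those that rose were RAC2, a small GTPase that activates the phagocyte oxidase, and NCF4, its p40phox subunit. RAC2 was at 0 in YCCEL1 with DMSO and at a mean of 73.6 with DCB (adjusted p = 1.64e-06), and in AGS it rose from 13.0 to 57.2 (log2 fold change 2.05, SE 0.53, adjusted p = 0.010). NCF4 stayed low, at 3.77 in AGS with DCB against 0 in DMSO. The proton channel gene HVCN1 did not pass over the 5 lines (adjusted p = 0.072). In AGS its mean was 0 in DMSO and 2.90 in DCB, and no library had more than 3.01. CYBB, the phagocyte oxidase NOX2 itself, was at 1.12 to 48.9 in the 20 libraries.

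Of 8 genes that use or carry hydrogen peroxide 6 were tested and 2 rose over the 5 lines, among them the aquaporin gene AQP3, with 0 lower (also at an unadjusted p below 0.05) and a median of 0.95. The shares of all tested genes, for this and the following lists, were again 17.9% higher and 6.94% lower. AQP3, a channel that lets water, glycerol and peroxide through, rose by 3.52 (SE 0.50, adjusted p = 7.14e-05), from 17.9 to 968 in YCCEL1 and from 4.18 to 249 in SNU719, with 690 and 1209 in AGS (adjusted p = 0.21). AQP8 and MPO did not pass over the 5 lines (adjusted p = 0.073 and 0.17). In SNU719 the mean of AQP8 was 0 in DMSO and 1.63 in DCB. That of MPO was 0.30 and 25.7 there, with a highest library of 49.3. Of 13 genes that clear peroxide, all tested, 6 rose and 2 fell, with a median of 0.23. The peroxiredoxin gene PRDX1 rose in all 5 lines, from 3497 to 5358 in AGS (0.62, SE 0.04, adjusted p = 3.36e-08) and from 1494 to 3854 in HGC27 (1.37, SE 0.04, adjusted p = 6.81e-12). The extracellular glutathione peroxidase gene GPX3 also rose in each line, in AGS from 178 to 422 (1.24, SE 0.34, adjusted p = 0.015), and GPX7 rose over the 5 lines (adjusted p = 3.66e-04). Catalase (CAT) fell, by 0.72 over the 5 lines (adjusted p = 9.92e-04) and in AGS from 563 to 180.1 (−1.64, SE 0.16, adjusted p = 3.39e-06). It also fell in SNU719 (681 to 385, adjusted p = 0.0019) and HGC27 (648 to 468, adjusted p = 0.039), lines in which no DUOX gene passed. Of the marker lists, 0 of 5 epithelial (4 at an unadjusted p below 0.05), 1 of 6 leukocyte (CD14) and 6 of 6 stromal genes rose over the 5 lines. In AGS 2 of 5 epithelial markers rose (KRT8 and KRT18), where 18.5% of all genes did, and their sum was 31499 to 31676 in DMSO and 48956 to 51088 in DCB. There 2 of 6 stromal markers rose, and their sum was 271 to 287 in DMSO and 1951 to 2009 in DCB, most of it COL1A1 (mean 266 and 1909). The leukocyte sum, most of it LYZ, was 34373 to 34498 in DMSO and 16283 to 16787 in DCB, with 1 of 6 higher. The part of these markers in the DUOX result was not tested.

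The promoters of the 10 genes, all found in the RefSeq table (13 promoters of 300 bases, 250 before and 50 after the start), differed in CG content. NOXA1 held 40 CG, more than 92.4% of the 35116 promoters of the table, followed by DUOX1 with 35 (85.9%) and the upstream promoter of DUOXA1 with 33 (82.8%). CYBA held 23 (64.2%), DUOX2 18 (55.5%) and DUOXA2 15 (51.1%), near the median of all promoters, 14. Of the 3 promoters of NOX4, 1 held 28 (73.8%) and the others 2 each. At the low end NOXO1 held 5, NOX1 1 and NOX5 0. Between the RefSeq starts of DUOXA1 and DUOX1 lie 114 bases with 13 CG, so that both pairs of the locus have a shared stretch with CG, denser in the DUOX1 pair. By the gene spans given above, however, DUOXA1 and DUOX1 overlap by 6 bases, and annotated exons of both cover most of these 114 bases. In AGS, the 4 genes that rose had a promoter with 15 to 35 CG, and NOX1, which fell, held 1. Of the genes that did not pass there, NOXA1, NOX4 and CYBA had a promoter with 23 to 40, and NOXO1 and NOX5 held 5 and 0. The letters AGGTCA, a motif bound by retinoic acid receptors, on either strand, were in 3 of the 13 promoters (DUOXA1, NOX1 and a promoter of NOX4) and in 13.8% of all promoters.

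**Figure D4:**
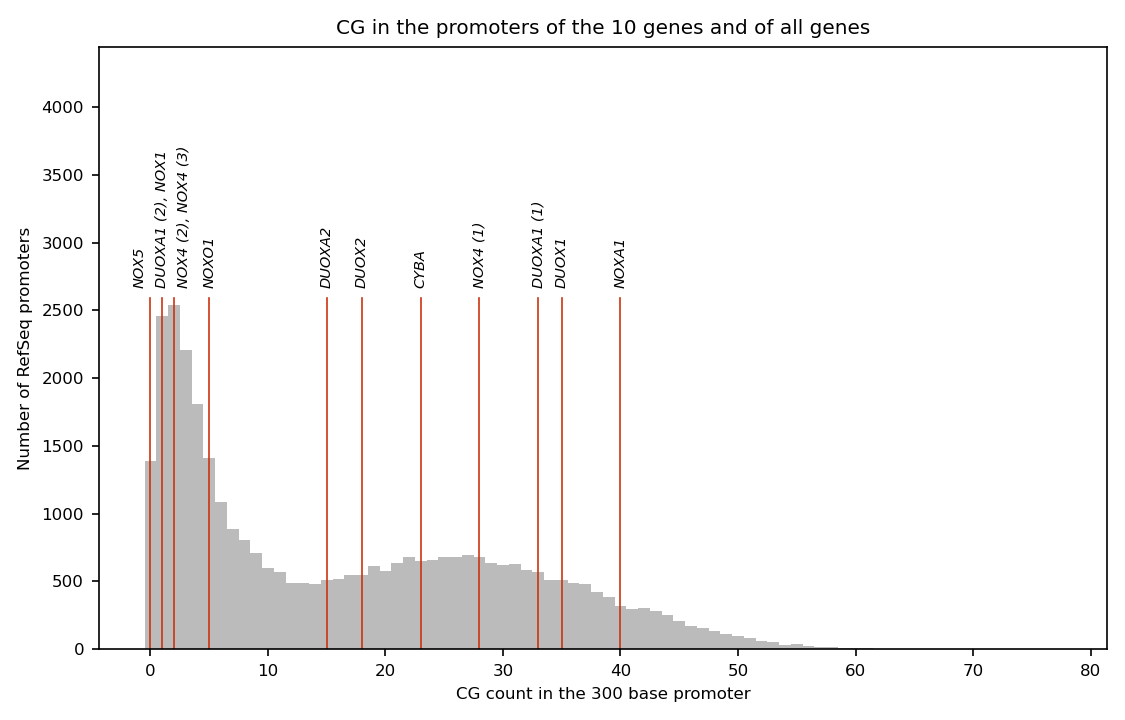
Number of RefSeq promoters (grey bars) by the number of CG in 300 bases, with the 13 promoters of the 10 genes as red lines; a number in brackets tells promoters of 1 gene apart. The DUOX genes lie between 15 and 35 CG apart from the second promoter of DUOXA1 (1), and NOX1 and NOX5 lie at 1 and 0.

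Genes with the pattern most like a member over the 10 group means, by Pearson's r on the log2 scale and as a description, were IL24 (0.99), HSD11B1 (0.98) and MYOZ2 (0.98) for DUOX2. For DUOXA1 they were DUOX2 itself (0.96), LINC01260 (0.95) and MAK (0.95), and for DUOX1 TAF1L, COCH and UCN2 (all 0.95). DUOXA2, with values in AGS with DCB and hardly elsewhere, went with AP000851.1, HSD3BP5 and SSTR4 (1.00 each). NOX1 went with CDH24 (0.98), ZNF793-AS1 (0.97) and GUSBP12 (0.96).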

How the data were processed

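Poly(A) RNA sequencing of 20 libraries (5 lines, DMSO or DCB, 2 libraries each) was analysed from 1 table. The values deposited by the authors are a signal, normalized estimated counts that are not whole. Per the labels, STAR 2.5.2b, featureCounts 1.5.1 and DESeq2 1.14.1 were used. The build named there (GRCh37) differs from the coordinates of the table, of which 92.6% equal GENCODE v44 on GRCh38. The labels and the published methods describe different library kits, so strandedness is unsettled.

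Genes whose values sum to more than 10 were tested with limma 3.58.1 (R 4.3.3, eBayes with trend) on log2(value + 1), a scale that understates changes of low genes. Group effects came from 1 fit of 10 groups, and effects over the 5 lines from a fit with line and treatment. A gene rose or fell at an adjusted p below 0.05. SEs are those of limma. Planned tests allowed for whole counts, which the values are not. Named genes were the 10 members, up to 4 genes of each list by adjusted p over the 5 lines, the tested genes of the DUOX locus and the 3 genes most like 5 of the members. Some list genes that this rule names are not reported here. Members and lists were chosen with earlier results of these data known. The fit was tested on simulated data. Alternatives were another pseudocount, filter, trend, scaling, a replicate block, each line alone, and leaving out libraries or lines.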

Additional observations from a re-analysis of the deposited data

Results flagged for a closer look

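The DCB effect of 6 genes differed between groups of lines by a test of the difference itself. DUOX2 changed more in CIMP+ than in CIMP− lines (adjusted p = 0.007816) and more in AGS than in the other 4 lines (adjusted p = 0.001417). DUOXA2, listed at 0 outside AGS and 1 library of SNU719, differed for EBV status (adjusted p = 0.001744, lower in EBV+), for CIMP status (adjusted p = 0.0003231) and for AGS (adjusted p = 4.551e-07). It was tested only through its values in AGS with DCB, so these p-values are no independent evidence. DUOXA1 differed for AGS at an adjusted p of 0.04999, which was lost under 5 of the alternative settings and passed in 3 of 20 fits with 1 library left out. NOX1 changed downward in AGS against the other lines (adjusted p = 0.00187). NOXA1 differed for CIMP status (adjusted p = 0.03018), with HGC27 (2.72) above all 3 CIMP+ lines and SNU16 (−0.36) level with AGS (−0.33). The effect on NOXA1 was lower in AGS than in the mean of the others (adjusted p = 0.01589). CYBA differed for EBV status (adjusted p = 9.42e-09), CIMP status (adjusted p = 3.99e-07) and AGS (adjusted p = 8.211e-05), with SNU719 at 0 in DMSO. The comparison of AGS with the other lines was added after the data were seen.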

How the results depend on the processing

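The number of the 10 genes that passed was recomputed under each alternative, and no called change turned its direction. In YCCEL1 it was 2 and became 4 with the line fitted alone. In AGS it was 5 and became 3 when the values had to sum to more than 100, DUOXA1 and DUOXA2 then not being tested. In HGC27 it was 2 and became 1 with no filter on low values, without the trend and with the line fitted alone. Between EBV+ and EBV− lines it was 2 and became 1 with a sum above 100. Over the 5 lines it was 5 and became 3 with a sum above 100, 2 with quantile normalization, 3 without YCCEL1, 3 without SNU719, 2 without AGS and 3 without SNU16. Quantile normalization moved the median change of all genes over the 5 lines from 0.15 to −0.06 (a shift of −0.20) and the called genes from 4901 higher and 1897 lower to 3125 and 2886. With a pseudocount of 5 the 2 pair differences became −0.881 and −0.734 (adjusted p = 0.0054).

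The replicate numbers did not pair the libraries: deviations of same-numbered libraries correlated at −0.031 to 0.045 within lines. With the replicate block, the count became 1 in SNU719 (2 without it) and 2 over the 5 lines (5 without it), where DUOX2, DUOXA1 and NOX5 then had an adjusted p of 0.056, 0.057 and 0.078.

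Leaving out 1 library at a time gave 1 to 2 genes in YCCEL1, 1 in SNU719, 5 in AGS, 0 to 1 in SNU16, 1 to 3 in HGC27, 3 to 5 over the 5 lines, 2 to 3 for EBV status, 3 to 4 for CIMP status and 4 to 6 for AGS against the others. The pair differences ranged from −0.834 to −0.507 for DUOX1 and DUOXA1 (adjusted p 0.019 to 0.151, passing in 5 of 20) and from −0.897 to −0.457 for DUOX2 and DUOXA2 (0.0154 to 0.104, passing in 10 of 20). Of the single genes' values under these alternatives, 810 kept their side of the threshold, 43 lost and 21 gained a call. The cause of these changes was not tested. With 2 libraries a group, genes at a few normalized counts are read with little precision.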
